A study of Drosophila melanogaster with 12 samples.

Results

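Cytochrome P450 genes of Drosophila melanogaster were followed through an RNA-seq and a ChIP-seq experiment on Brahma (BRM), the ATPase of the SWI/SNF chromatin remodeling complex. The genes were chosen by name, as those whose FlyBase symbol starts with Cyp and a digit. Of 87 such symbols, 2 belong to cyclophilins (Cyp1 and Cyp40) and were left out, which leaves 85 P450 genes, 2 of them annotated as pseudogenes. The RNA-seq table holds 81 of the 85 among its 12986 genes, and the ChIP-seq table holds 80 among its 13924. The RNA-seq table has no row for Cyp313a5, Cyp6a18, Cyp6a21 and Cyp311a1, and the ChIP-seq table has none for Cyp9f3, Cyp6a21, Cyp6a15Psi, Cyp6a16 and Cyp6t2Psi.

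All libraries came from S2 cells, an established line that was made from late embryos and resembles hemocytes, the blood cells of the fly. The RNA-seq experiment has 4 groups of 2 biological replicates. Control cells carried an empty plasmid and received double-stranded RNA (dsRNA) against GFP for 48 h. BRM-depleted cells carried the same empty plasmid and received dsRNA against BRM for 48 h. The recBRM-V5 and recBRM-K804R-V5 cells also received dsRNA against BRM for 48 h, 30 μg per well as in the other groups, and expressed a V5-tagged BRM from a stably integrated plasmid with a metallothionein promoter, which copper sulfate switched on during the last 24 h. K804R is a substitution in the ATPase domain that leaves BRM without ATP hydrolysis. Whether the cells with the empty plasmid received copper is not given in the sources used here. Copper and the making of a stable line therefore cannot be told apart from the recombinant protein in any comparison of these lines with the cells that lack it. The ChIP-seq experiment has 2 replicates of an immunoprecipitate of endogenous BRM (IP) and 2 of the Input.

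P450s are heme enzymes that insert an oxygen atom into steroids, fatty acids and foreign compounds. Insect P450s fall into 4 clans. The CYP3 clan holds the Cyp6, Cyp9 and Cyp28 families, many of which are induced by plant compounds or act on insecticides. The CYP4 clan includes fatty acid and hydrocarbon enzymes, the CYP2 clan includes enzymes of hormone metabolism, and the mitochondrial clan, in which the Cyp12 family lies, receives its electrons through a ferredoxin. P450s of the other clans sit in the endoplasmic reticulum and take electrons from the reductase Cpr. In the fly many detoxifying P450s are known for their expression in the midgut, Malpighian tubule and fat body.

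The 8 RNA-seq libraries held between 6600562 and 10287294 counted reads. Counts of brm were 4105 and 3658 in control, 1201 and 1246 in BRM-depleted, 139681 and 175038 in recBRM-V5 and 21197 and 13242 in recBRM-K804R-V5. The 7 hemocyte markers were srp, Hml, Pxn, NimC1, eater, Sr-CI and crq. Of these, 2 were higher and 2 lower in recBRM-V5 than in control cells, beside 10.9% and 7.24% of all tested genes. In recBRM-K804R-V5 2 were lower, beside 4.15%. Single markers moved in opposite directions. NimC1 had 26 and 15 counts in control, 3161 and 1438 in recBRM-V5 and 70 and 37 in recBRM-K804R-V5 libraries. Hml had 7848 and 6650, 2131 and 1568, and 978 and 196 in these groups. Levels are given in CPM, which are counts scaled to the library total with TMM factors. The summed level of the 7 markers was 2486 and 2296 CPM in control and 2396 and 2763 in BRM-depleted libraries. It was 3208 and 1991 in recBRM-V5 and 1681 and 1463 in recBRM-K804R-V5 libraries. None of the 5 fat body markers (Lsp1alpha, Lsp1beta, Lsp2, Fbp1 and Fbp2) exceeded 6 counts in any library, and their summed level was 0.422 and 1.46 CPM in control and 0.595 and 1.14 CPM in recBRM-V5 libraries. Of the 5 midgut markers, 2 were in the table, 1 of these with no more than 1 count per library, and the other, mex1, fell in recBRM-V5. All values are from bulk samples, in which fewer cells of a kind and less RNA per cell cannot be told apart.

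The level of each P450 in control cells was taken as CPM per kb of exon, which allows genes to be compared. Most P450s were silent or low. Of the 81 genes, 16 (19.8%) had 0 counts in both control libraries, 30 (37.0%) were under 1 CPM per kb, 19 (23.5%) were between 1 and 10 and 16 (19.8%) were at 10 or more, against 17.99%, 24.1%, 15.6% and 42.4% of the 12428 genes with an annotated length. The 16 genes of the highest class were 11 of the CYP3 clan, 2 of the CYP4 clan and 3 of the mitochondrial clan. All 4 CYP2 genes lay below 10 CPM per kb. Of the 30 CYP4 genes, 8 were at 0 in both libraries and 15 were under 1 CPM per kb.

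**Figure D1:**
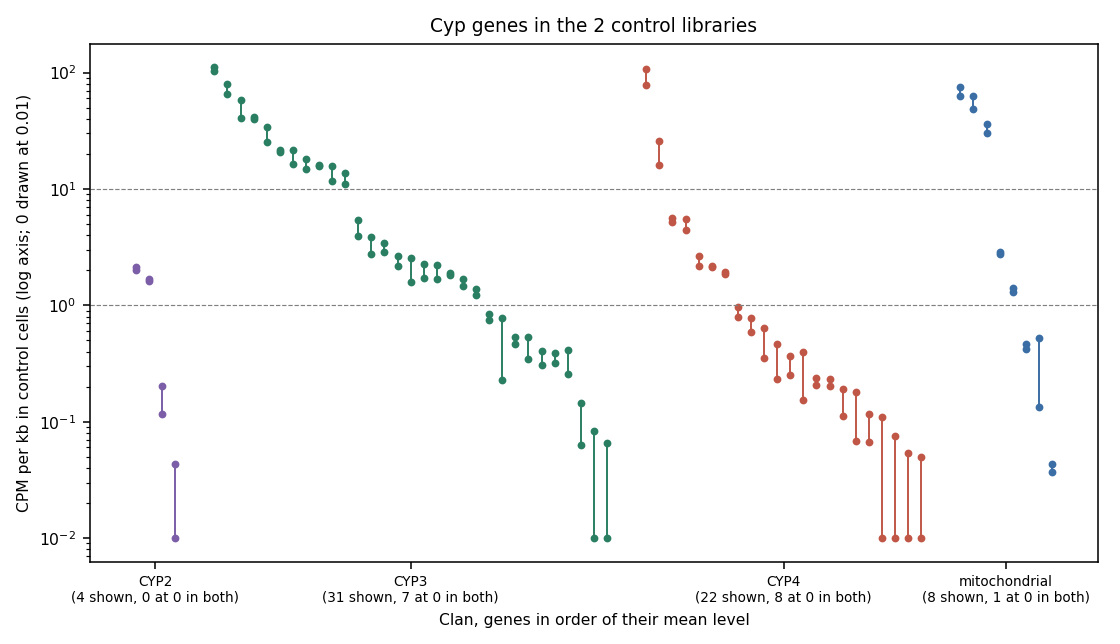
Level of the P450 genes in the control libraries, as CPM per kb of exon on a log axis, with 1 point per library joined by a line for each gene, ordered by level within each clan; dashed lines mark 1 and 10 CPM per kb. The 16 genes above 10 lie in the CYP3, CYP4 and mitochondrial clans, and the 16 genes at 0 in both libraries are given as numbers under the axis.

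Cyp9c1 had the highest level, with 111 and 103 CPM per kb in the 2 control libraries. Next came Cyp4ac2 with 108 and 78.4, Cyp9f2 with 80.1 and 65.8, Cyp12a5 with 75.6 and 62.9 and Cyp12a4 with 62.5 and 48.2 CPM per kb. Each neighbour in this order overlapped with the next in its 2 libraries, except that the lower Cyp12a5 library was just above the higher Cyp12a4 library. These 5 genes made up 54.6% of the summed P450 level. Cyp12a4 is known for resistance to the insecticide lufenuron when it is overexpressed. Part of the value of Cyp9f2 is uncertain, since 36.0% of its 50-base exon windows are also found in Cyp9f3 or another P450 gene and reads from such stretches may have been lost or shared in the counting. The same holds for Cyp12d1-d (86.0%), Cyp12d1-p (32.4%) and Cyp9f3 (29.7%). Shares were also found for Cyp6a9 (28.1%) and Cyp6a19 (19.2%), but these 2 genes overlap in the genome on opposite strands. Windows were matched on either strand, so their shares include this overlap, and its effect on the strand-specific counts was not tested.

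Counts of 50 of the 81 P450s were high enough to be tested with edgeR among 8165 genes. The other 31 reached at most 10 counts in any library, and 6 of them were at 0 in all 8 libraries (Cyp28c1, Cyp308a1, Cyp9b2, Cyp312a1, Cyp313a3 and Cyp316a1). Tested genes comprised 2 of 4 CYP2, 27 of 38 CYP3, 14 of 30 CYP4 and 7 of 9 mitochondrial P450s. Over the family, P450 reads were 0.150 and 0.120% of all counts in control libraries, 0.167 and 0.180% in BRM-depleted, 0.298 and 0.220% in recBRM-V5 and 0.200 and 0.231% in recBRM-K804R-V5 libraries.

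The first comparison asked which P450s responded to recombinant BRM with an intact ATPase. In recBRM-V5 cells, 19 of the 50 tested P450s were higher than in control cells and 2 were lower (edgeR quasi-likelihood test, Benjamini-Hochberg adjusted p under 0.05 over all genes). That is 42.0% of the tested P450s, beside 18.2% of all 8165 tested genes in either direction, 10.9% in the higher and 7.24% in the lower direction. The median log2 fold change was 0.85 for the 50 P450s and 0.00 for all tested genes. The count limit was applied over all libraries, and 8 of the 50 P450s did not pass it in the 4 libraries without recombinant BRM alone (Cyp12d1-d, Cyp28a5, Cyp4aa1, Cyp4e1, Cyp4p2, Cyp4p3, Cyp6a19 and Cyp9h1). Those of the 8 that are low without recombinant BRM entered through the libraries in which they are high. Among the other 42 P450s, 13 were higher and 2 lower, which is 35.7%, beside 16.4% of the 7743 genes that passed in this way, and the median log2 fold change was 0.76, beside -0.02. The P450s that rose were 11 of the CYP3 clan, 7 of the CYP4 clan and 1 of the mitochondrial clan, and those that fell were 1 of the CYP2 and 1 of the CYP4 clan.

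**Figure D2:**
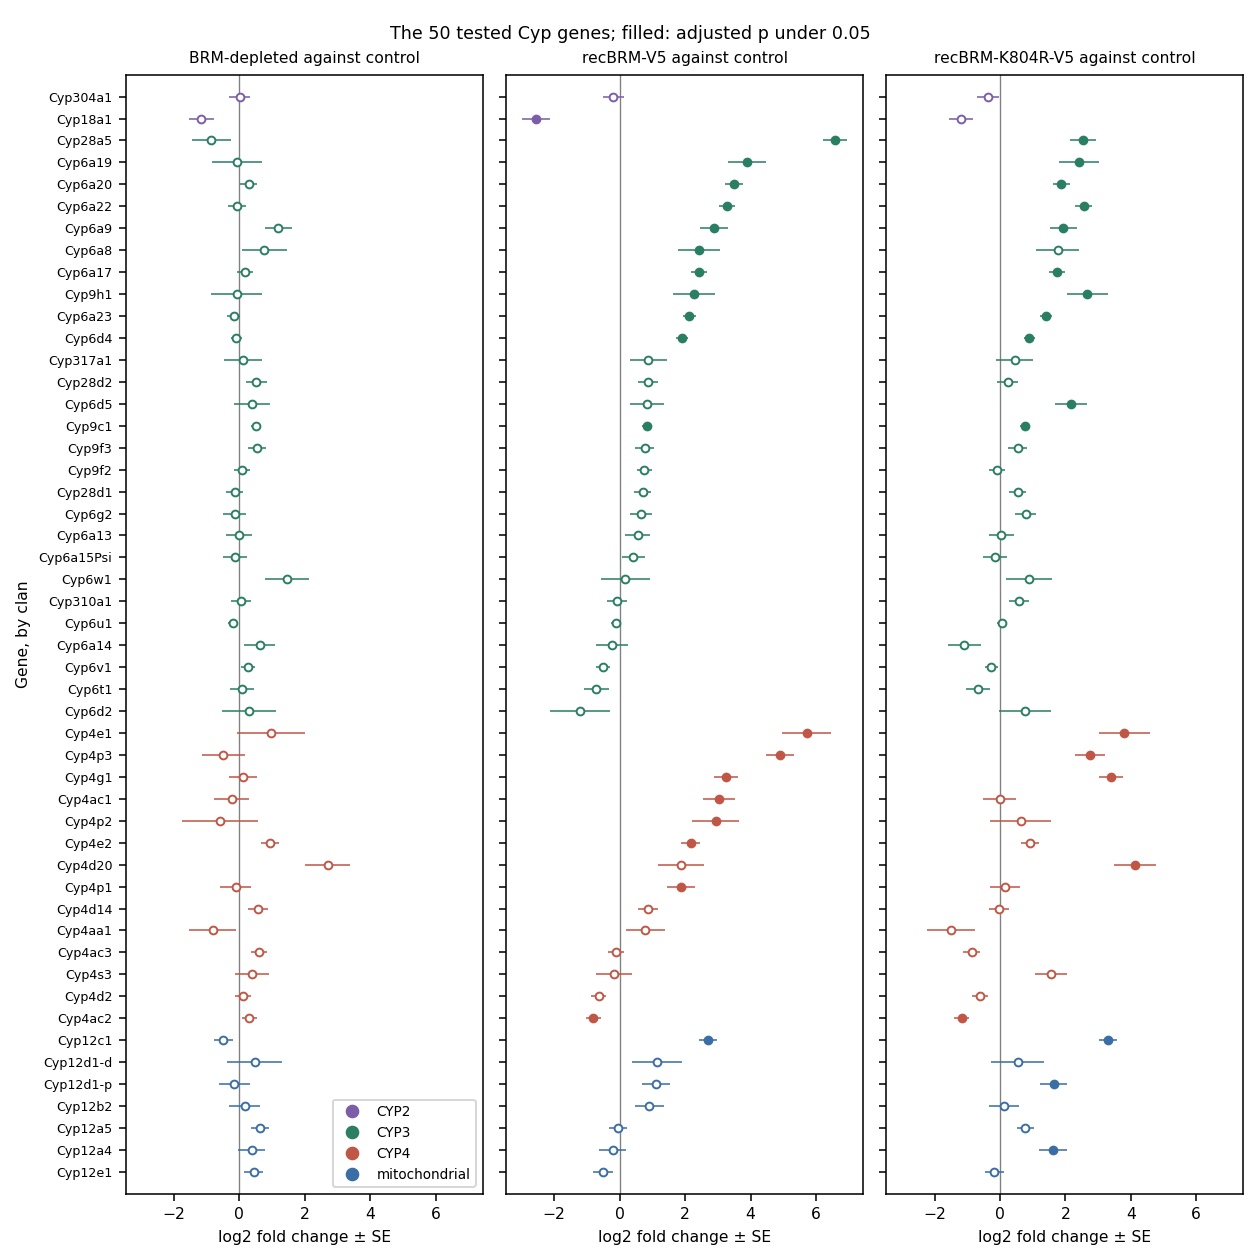
Log2 fold change against control cells with its standard error for the 50 tested P450s in BRM-depleted, recBRM-V5 and recBRM-K804R-V5 cells, ordered by clan and by the change in recBRM-V5; filled points have an adjusted p under 0.05 (edgeR). No point is filled in BRM-depleted cells, 21 are filled in recBRM-V5 and 19 in recBRM-K804R-V5.

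Of all P450s, Cyp28a5 changed most in recBRM-V5 cells. The Cyp28 family belongs to the CYP3 clan, and its relatives in Drosophila mettleri are known to be induced by cactus alkaloids. Cyp28a5 had 0.949 and 0.609 CPM in control, 0.147 and 0.700 in BRM-depleted, 74.5 and 79.3 in recBRM-V5 and 4.39 and 4.99 in recBRM-K804R-V5 libraries. Both recBRM-V5 libraries thus stood far above all others, and both recBRM-K804R-V5 libraries lay between them and the rest. The log2 fold change of Cyp28a5 in recBRM-V5 against control was 6.58 ± 0.36 (SE, adjusted p 0.000192, edgeR).

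The other CYP3 genes that rose included 7 Cyp6a genes. Cyp6a20, which is known for its part in male aggression, had 38.6 and 29.5 CPM in control and 371 and 397 CPM in recBRM-V5 libraries, with a log2 fold change of 3.49 ± 0.27 (SE, adjusted p 0.000429, edgeR). Cyp6a19 had 0.738 and 0.609 CPM in control and 9.40 and 11.1 CPM in recBRM-V5 libraries, a log2 fold change of 3.89 ± 0.57 (SE, adjusted p 0.00376, edgeR). Cyp6a22 had 3.16 and 3.65 and 36.3 and 29.5 CPM in these groups, a log2 fold change of 3.27 ± 0.25 (SE, adjusted p 0.000429, edgeR). In each of these 3 genes both recBRM-V5 libraries lay above all 6 others. Cyp6a9 had 10.7 and 7.67 CPM in control and 97.2 and 38.1 CPM in recBRM-V5 libraries, with a log2 fold change of 2.88 ± 0.42 (SE, adjusted p 0.00358, edgeR). Both recBRM-V5 libraries were above the other 6, the first by far, and without the first the log2 fold change was 2.04. Cyp6a17, known for temperature preference behavior, rose by 2.42 on the log2 scale, from 59.3 and 43.8 to 341 and 212 CPM, and its neighbour Cyp6a23 rose by 2.13, from 28.0 and 20.7 to 115.1 and 98.2 CPM. Cyp6a8, a fatty acid hydroxylase that caffeine induces, had 4.54 and 2.80 CPM in control and 28.7 and 10.9 CPM in recBRM-V5 libraries. The recBRM-V5 replicates of Cyp6a8 thus differed more than the control replicates, and the log2 fold change of 2.43 fell to 1.56, with the call lost, without recBRM-V5 replicate 1. The call was also lost without either control library.

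Cyp6d4, Cyp9h1 and Cyp9c1 completed the CYP3 genes that rose. Cyp6d4 went from 33.7 and 27.8 to 121 and 110.0 CPM, and both recBRM-V5 libraries lay above all others. Cyp9c1, the P450 with the highest level per length, went from 193 and 179 to 370.2 and 295 CPM, a log2 fold change of 0.84. Cyp9h1 was low throughout, with 1.27 and 0.365 CPM in control and 5.71 and 2.42 CPM in recBRM-V5 libraries. Of these calls, that of Cyp9c1 was lost without either control library (highest adjusted p 0.0955, edgeR). That of Cyp9h1 was lost without either control library or recBRM-V5 replicate 1, with log2 fold changes between 1.51 and 3.43 over the fits that left out 1 library.

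In the CYP4 clan, Cyp4e1, Cyp4p3 and Cyp4g1 changed most. Cyp4e1 had 4 and 3 counts in the control libraries and 147 and 180 in the recBRM-V5 libraries, with a log2 fold change of 5.71 ± 0.74 (SE, adjusted p 0.00229, edgeR). Cyp4p3 had 4 and 5 counts in the control libraries and 105 and 134 in recBRM-V5, with a log2 fold change of 4.90 ± 0.43 (SE, adjusted p 0.000577, edgeR). In both genes the recBRM-V5 libraries were the highest of the 8 and the recBRM-K804R-V5 libraries came next. Cyp4g1, an oxidative decarbonylase that makes the hydrocarbons of the cuticle in the oenocytes, had 1.79 and 2.19 CPM in control, 2.06 and 2.24 in BRM-depleted, 24.2 and 13.8 in recBRM-V5 and 23.6 and 18.2 in recBRM-K804R-V5 libraries. The log2 fold change of Cyp4g1 was 3.25 ± 0.36 (SE, adjusted p 0.00128, edgeR), and the libraries of both recombinant lines overlapped with each other and with no others.

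Cyp4ac1 had 4.43 and 3.65 CPM in control and 48.7 and 18.2 CPM in recBRM-V5 libraries, with a log2 fold change of 3.04 ± 0.48 (SE, adjusted p 0.00504, edgeR). Its 2 recBRM-V5 libraries were both the highest but differed from each other, and without replicate 1 the log2 fold change was 2.16. Cyp4p2 had 3 and 1 counts in control and 14 in each recBRM-V5 library (adjusted p 0.0287, edgeR), a call lost without either control library or recBRM-V5 replicate 2. Cyp4p1 went from 3.59 and 3.65 to 11.1 and 15.5 CPM, and its call was lost in the same 3 cases. Cyp4e2 went from 49.4 and 30.7 to 207 and 153 CPM.

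Of 7 tested mitochondrial P450s, 1 rose in recBRM-V5 cells, beside 10.9% of all tested genes. This was Cyp12c1, which went from 5.17 and 5.36 to 39.0 and 29.1 CPM. The 2 P450s that fell were Cyp18a1 and Cyp4ac2. Cyp18a1 is the CYP2 enzyme that inactivates the steroid hormone 20-hydroxyecdysone. It had 47 and 42 counts in control, 18 and 13 in BRM-depleted, 5 and 8 in recBRM-V5 and 24 and 13 in recBRM-K804R-V5 libraries, so that the control libraries were the highest and the recBRM-V5 libraries the lowest. Its log2 fold change in recBRM-V5 was -2.54 (adjusted p 0.0064, edgeR). Cyp4ac2 fell from 184 and 134 to 109 and 71.6 CPM, a call lost without either control library or recBRM-V5 replicate 2 (highest adjusted p 0.233, edgeR).

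**Figure D3:**
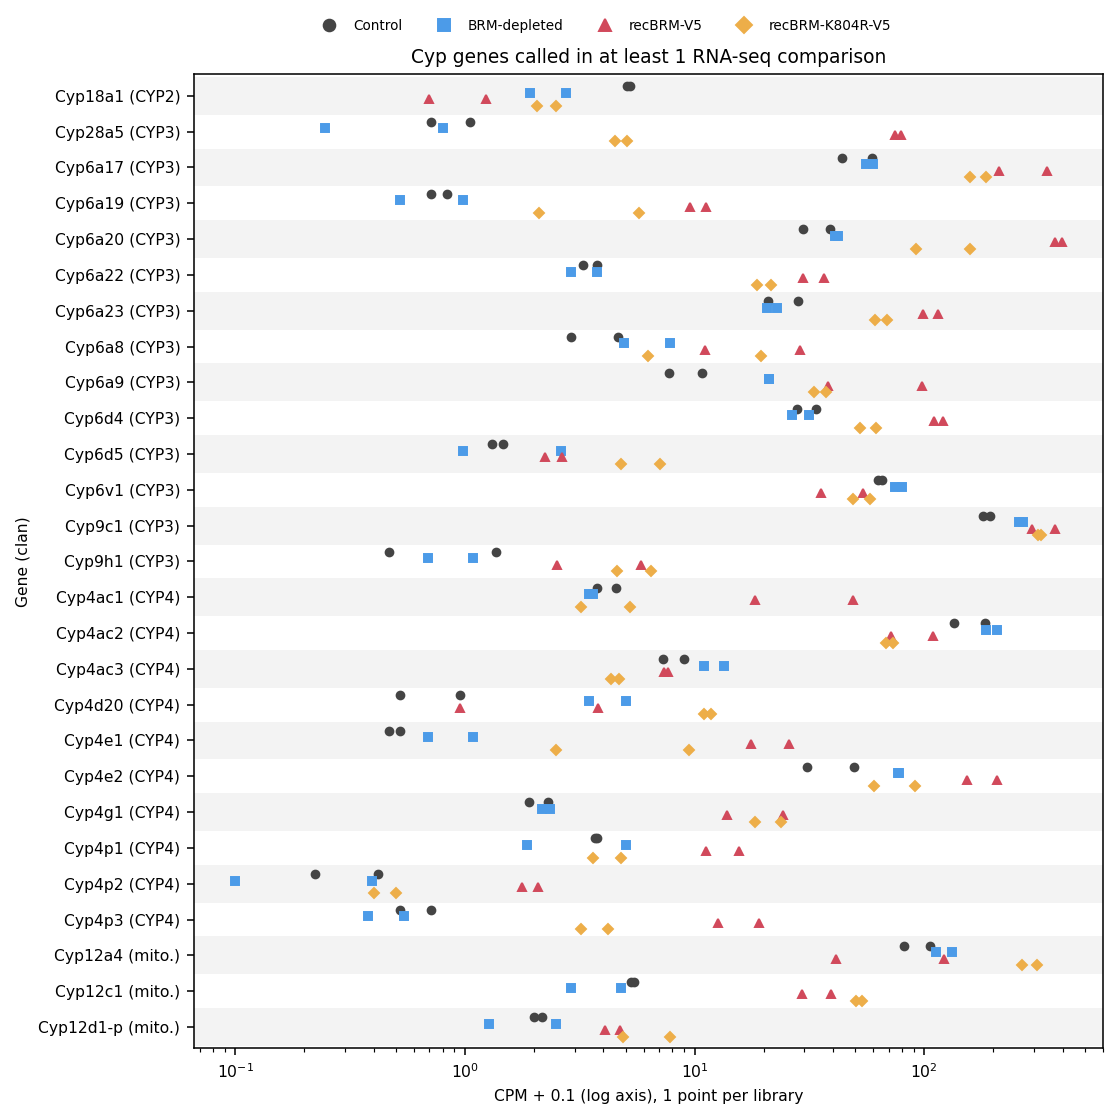
CPM of the 27 P450s called in at least 1 of the 6 RNA-seq comparisons, plotted as CPM + 0.1 on a log axis with 1 point per library, by clan. The recBRM-V5 points of Cyp28a5, Cyp4e1 and Cyp4p3 stand to the right of all other points of these genes, and those of Cyp18a1 stand to the left.

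To show the promoters of genes that moved in recBRM-V5 cells, the 250 bases before the gene start are given for the 5 called P450s with the largest change outside the right arm of the second chromosome, and for Cyp4ac2, which fell next to Cyp4ac1, which rose. Sequences are from the RefSeq genome (assembly Release 6 plus ISO1 MT), 5′ to 3′ on the gene's strand. Capitals mark matches to TATAAA, the core of the TATA box, on either strand.
Cyp28a5 (chr2L:13977052-13977301, + strand): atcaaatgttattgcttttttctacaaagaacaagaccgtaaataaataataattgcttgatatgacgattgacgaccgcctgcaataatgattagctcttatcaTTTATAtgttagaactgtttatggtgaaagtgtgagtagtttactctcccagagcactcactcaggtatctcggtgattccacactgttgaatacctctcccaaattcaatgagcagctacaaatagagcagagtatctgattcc
Cyp4g1 (chrX:469336-469585, - strand): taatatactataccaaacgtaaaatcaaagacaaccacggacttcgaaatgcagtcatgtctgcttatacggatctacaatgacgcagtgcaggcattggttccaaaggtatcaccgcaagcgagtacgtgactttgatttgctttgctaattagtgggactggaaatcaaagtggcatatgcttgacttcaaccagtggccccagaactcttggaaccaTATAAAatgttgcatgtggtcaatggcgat
Cyp4ac1 (chr2L:5263751-5264000, + strand): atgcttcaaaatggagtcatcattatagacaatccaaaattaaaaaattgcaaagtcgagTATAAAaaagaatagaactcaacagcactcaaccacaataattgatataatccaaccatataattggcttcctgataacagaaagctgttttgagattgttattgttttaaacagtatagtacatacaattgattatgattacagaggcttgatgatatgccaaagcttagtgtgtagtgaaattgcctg
Cyp4ac2 (chr2L:5266142-5266391, + strand): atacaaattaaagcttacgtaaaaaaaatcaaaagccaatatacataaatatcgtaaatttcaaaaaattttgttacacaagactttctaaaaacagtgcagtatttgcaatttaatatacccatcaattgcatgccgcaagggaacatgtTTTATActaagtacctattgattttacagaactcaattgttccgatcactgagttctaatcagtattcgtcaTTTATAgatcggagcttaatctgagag
Cyp12c1 (chr3L:18686320-18686569, - strand): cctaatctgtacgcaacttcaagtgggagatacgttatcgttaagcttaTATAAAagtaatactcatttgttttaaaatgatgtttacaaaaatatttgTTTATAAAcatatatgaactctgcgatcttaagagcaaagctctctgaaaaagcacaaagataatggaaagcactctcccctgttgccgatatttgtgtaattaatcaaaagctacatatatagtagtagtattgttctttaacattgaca
Cyp18a1 (chrX:18693043-18693292, - strand): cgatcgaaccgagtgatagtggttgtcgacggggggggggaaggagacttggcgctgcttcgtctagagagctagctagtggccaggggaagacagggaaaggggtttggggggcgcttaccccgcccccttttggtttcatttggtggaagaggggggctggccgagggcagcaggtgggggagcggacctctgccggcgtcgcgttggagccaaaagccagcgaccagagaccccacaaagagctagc
Cyp4g1 has a match at position -30 from its start, on its own strand, in the range where TATA boxes are usually found. The match of Cyp28a5 is at -145 on the opposite strand and that of Cyp4ac1 at -190 on its own strand. Cyp12c1 has 3 matches, all farther from its start than that of Cyp28a5, Cyp4ac2 has 2 on the opposite strand, and Cyp18a1 has none.

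Over the family, TATAAA on either strand was found in 45 of 85 promoters (52.9%), beside 43.0% of the 13944 promoters of protein-coding genes. On the gene's own strand and 50 to 10 bases before the start it was found in 17 of the 85 (20%), beside 10.1% of the 13944. Of the 19 P450s that rose in recBRM-V5, 3 held it there (Cyp6a20, Cyp6a23 and Cyp4g1), as did 3 of the 29 tested and not called and 11 of the 35 not tested. The motif TGACNNNGC, which the stress factor encoded by cnc binds with its partner maf-S, was searched on both strands. It was found in 3 P450 promoters (3.53%), those of Cyp304a1, Cyp6a8 and Cyp4d14, beside 6.35% of the 13944, and of the 3 genes Cyp6a8 alone was called in recBRM-V5.

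Many P450s are neighbours in the genome. By a limit of fewer than 20 kb between neighbours, 31 of the 85 genes fell into 8 groups of 3 or more. The largest has 9 genes in 2R between 14871366 and 14903095 (BDGP6), of which 8 are in the RNA-seq table. Of these 8, 7 rose in recBRM-V5 cells (Cyp6a22, Cyp6a17, Cyp6a23, Cyp6a19, Cyp6a9, Cyp6a20 and Cyp6a8), with log2 fold changes between 2.13 and 3.89. The last gene, Cyp317a1, had 18 counts in each control library and 24 and 33 in recBRM-V5 libraries and was not called. The percentage of all genes higher in recBRM-V5 was 10.9. Of the 7 genes, Cyp6a19 had passed the count limit only with the recombinant lines. The Cyp4p genes, a group of 3 in 2R, and Cyp4e2 and Cyp4e1 of the group with Cyp4ad1 were also called, but Cyp4p2, Cyp4p3 and Cyp4e1 had likewise passed only with these lines, so nothing is read from the counts of these groups.

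**Figure D4:**
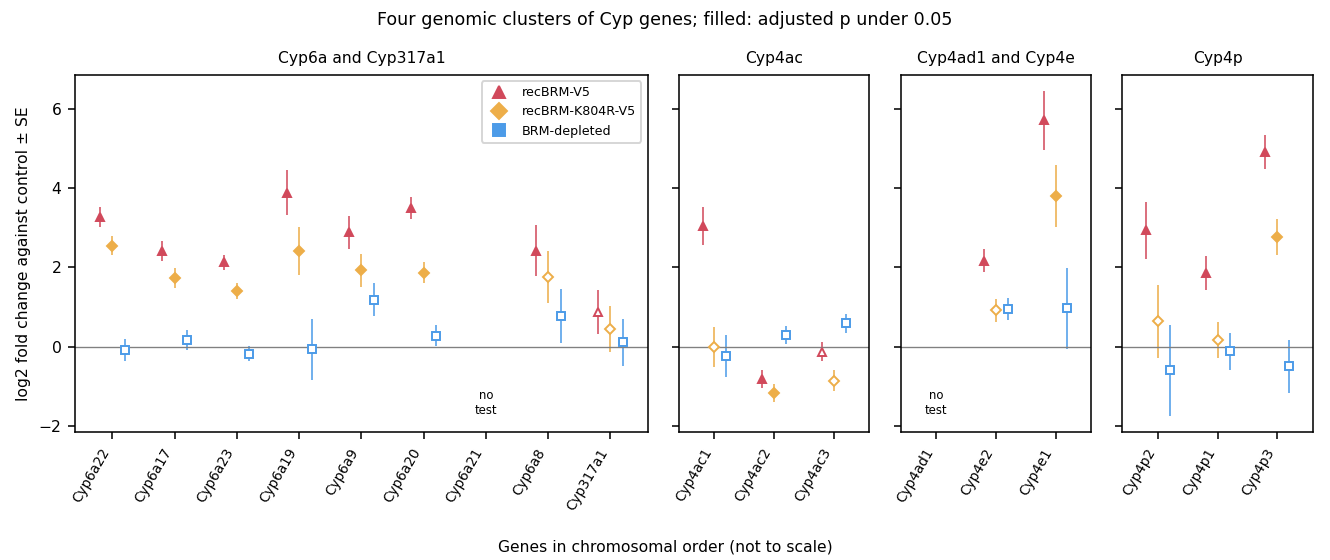
Log2 fold change against control cells, with its standard error, in the order of the genes along the chromosome for the group around Cyp6a22 and Cyp317a1 and for the Cyp4ac, Cyp4e and Cyp4p groups; filled points have an adjusted p under 0.05 (edgeR). The recBRM-V5 points of 7 of 8 genes in the first group lie above 2, and in the Cyp4ac group Cyp4ac1 lies above 0 while Cyp4ac2 lies below.

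The Cyp4ac group in 2L (5264001 to 5270329, BDGP6) did not move together. Cyp4ac1 rose and Cyp4ac2 fell in recBRM-V5 cells, and Cyp4ac3 had 8.86 and 7.18 CPM in control and 7.26 and 7.53 CPM in recBRM-V5 libraries and was not called. Of the 28 tested P450s outside the 8 groups, 6 rose and 1 fell in recBRM-V5 cells, beside 10.9% and 7.24% of all tested genes. Cyp28a5 and Cyp9h1, which rose, had passed the count limit only with the recombinant lines, so nothing is read from these counts either.

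The second comparison used the ATPase-dead protein. In recBRM-K804R-V5 cells, 18 of the 50 tested P450s were higher than in control cells and 1 was lower. That is 38.0%, beside 10.5% of all tested genes in either direction, 6.34% higher and 4.15% lower. The median log2 fold change was 0.70 for the P450s and 0.01 for all tested genes. Among the 42 P450s that passed the count limit in the libraries without recombinant BRM, 13 were higher and 1 lower, which is 33.3%, beside 9.78% of 7743 genes, with a median of 0.56, beside -0.01. The count of 19 called P450s fell to 7 without control replicate 1, 7 without control replicate 2, 11 without recBRM-K804R-V5 replicate 1 and 10 without its replicate 2. The control libraries that both comparisons share entered each of them.

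Of the genes that rose in recBRM-K804R-V5, Cyp12c1, Cyp4g1, Cyp6a20, Cyp6a22 and Cyp6a23 kept the call in each of the 4 fits that left out 1 library. Cyp12c1 had 53.2 and 50.5 CPM in recBRM-K804R-V5 libraries, with a log2 fold change of 3.30 ± 0.27 (SE, adjusted p 0.000489, edgeR), and both libraries lay above the other 6. For Cyp4g1 the log2 fold change was 3.39 ± 0.36 (SE, adjusted p 0.00139, edgeR). Cyp6a22 had 21.4 and 18.6 CPM, a log2 fold change of 2.55 ± 0.25 (SE, adjusted p 0.000926, edgeR), with both libraries between those of recBRM-V5 and those of the cells without recombinant BRM. Cyp6a20 and Cyp6a23 had 91.9 and 158 and 60.7 and 68.6 CPM, also between these groups.

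The largest change in recBRM-K804R-V5 cells was that of Cyp4d20, a CYP4 gene. It had 4 and 7 counts in control, 23 and 35 in BRM-depleted, 31 and 6 in recBRM-V5 and 109 and 77 in recBRM-K804R-V5 libraries. The recBRM-K804R-V5 libraries were the highest, while 1 recBRM-V5 library lay at the level of the BRM-depleted libraries and the other at that of the control libraries. The log2 fold change was 4.13 ± 0.65 (SE, adjusted p 0.00666, edgeR) in recBRM-K804R-V5 and 1.87 ± 0.71 (SE, adjusted p 0.115, edgeR) in recBRM-V5, and the first call was lost without control replicate 1 (adjusted p 0.0681, edgeR).

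Cyp4e1 and Cyp28a5 also rose in recBRM-K804R-V5 cells with log2 fold changes of 3.80 ± 0.78 (SE, adjusted p 0.0204, edgeR) and 2.54 ± 0.39 (SE, adjusted p 0.00615, edgeR). The change of Cyp4e1 ranged from 2.56 to 4.51 over the fits without 1 library, and its call was lost without either control library or recBRM-K804R-V5 replicate 2. The call of Cyp28a5 was lost without control replicate 2 (adjusted p 0.0563, edgeR). Cyp4p3, Cyp9h1 and Cyp6a19 had log2 fold changes of 2.76, 2.66 and 2.42 and lost the call without either control library, Cyp9h1 also without either recombinant library and Cyp6a19 without replicate 2 of the recombinant line. Over these fits the change of Cyp9h1 lay between 2.04 and 3.82 and that of Cyp6a19 between 1.54 and 3.01.

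Cyp6d5, Cyp12a4 and Cyp12d1-p were higher in recBRM-K804R-V5 than in control cells and were not called in recBRM-V5. Cyp12a4 had 106 and 81.8 CPM in control, 112 and 132 in BRM-depleted, 121 and 41.1 in recBRM-V5 and 266 and 310.4 in recBRM-K804R-V5 libraries. The difference between the recombinant lines was -1.82 ± 0.42 (SE, adjusted p 0.0523, edgeR) on the log2 scale, recBRM-V5 minus recBRM-K804R-V5, and did not pass the test. For Cyp6d5 the libraries held 1.37 and 1.22 CPM in control and 6.99 and 4.69 CPM in recBRM-K804R-V5. For Cyp12d1-p, known from insecticide resistance, they held 1.90 and 2.07 CPM and 4.79 and 7.72 CPM. The calls of these 3 genes were lost without any 1 of the 4 libraries, with highest adjusted p-values of 0.225 for Cyp12a4, 0.168 for Cyp6d5 and 0.235 for Cyp12d1-p (edgeR). The remaining genes that rose were Cyp6a9, Cyp6a17, Cyp6d4 and Cyp9c1, with log2 fold changes of 1.93, 1.74, 0.89 and 0.77. Cyp6a9 and Cyp9c1 lost the call without any 1 of the 4 libraries, Cyp6d4 without either control library or recBRM-K804R-V5 replicate 1, and Cyp6a17 without control replicate 2. Cyp4ac2 was the P450 that fell, to 73.3 and 68.3 CPM, a log2 fold change of -1.17, and it lost the call without control replicate 1 or either recombinant library.

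The recombinant lines were also compared directly, with the same dsRNA and copper on both sides. In recBRM-V5 cells 6 of the 50 P450s were higher than in recBRM-K804R-V5 cells and none was lower, which is 12.0%, beside 4.74% of all tested genes in either direction with 2.51% in the higher and 2.23% in the lower direction. Without the 8 genes that passed the count limit only with the recombinant lines, 4 of 42 were called, beside 4.25% of 7743 genes. The brm gene itself differed between the lines by 3.33 on the log2 scale, with more in recBRM-V5. The ATPase, the amount of recombinant BRM and the making of separate stable lines therefore cannot be told apart here.

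Cyp28a5 differed most, by 4.04 ± 0.29 (SE, adjusted p 0.000931, edgeR) on the log2 scale. Cyp4ac1 differed by 3.05 ± 0.49 (SE, adjusted p 0.0136, edgeR), and by 2.17 without recBRM-V5 replicate 1. Its recBRM-K804R-V5 libraries, with 3.10 and 5.15 CPM, overlapped with the control libraries. Cyp4p3 differed by 2.14 ± 0.34 (SE, adjusted p 0.0131, edgeR), and Cyp6a20 by 1.63 ± 0.25 (SE, adjusted p 0.012, edgeR). The differences of Cyp4e2 and Cyp6d4 were 1.25 and 1.01. For Cyp4e2 the recBRM-K804R-V5 libraries held 60.4 and 91.4 CPM, and the BRM-depleted libraries held 77.7 and 76.6 CPM, within that range. Cyp28a5 and Cyp6a20 kept the call in each fit that left out 1 library. Cyp4p3 lost it without recBRM-K804R-V5 replicate 1, Cyp4ac1 and Cyp6d4 without either recBRM-K804R-V5 library, and Cyp4e2 without recBRM-V5 replicate 1 or either recBRM-K804R-V5 library. With only the 4 compared libraries in the fit, Cyp28a5 alone was called. The absence of lower P450s did not hold under several alternatives. Without recBRM-V5 replicate 1, 5 were higher and 4 lower, with DESeq2 10 and 2, with limma-voom 7 and 2, and without the filter on low counts 13 and 5. The count of 6 became 10 without recBRM-V5 replicate 2 and 2 without recBRM-K804R-V5 replicate 1. For Cyp4g1 and Cyp12c1 the differences were -0.14 ± 0.30 (SE, adjusted p 0.861, edgeR) and -0.60 ± 0.24 (SE, adjusted p 0.213, edgeR), and neither passed the test.

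BRM depletion alone was compared with control cells to see whether P450s depend on endogenous BRM. None of the 50 P450s passed the test, beside 0.0% of all 8165 genes (edgeR). At an unadjusted p under 0.05, 6 P450s were higher (Cyp4d20, Cyp6a9, Cyp4e2, Cyp12a5, Cyp4ac3 and Cyp9c1) and Cyp18a1 was lower. These 7 are 14.0% of the P450s, beside 4.63% of all tested genes. DESeq2 and limma-voom also gave 0 P450s. The median log2 fold change was 0.11 for the P450s and -0.01 for all tested genes. The brm gene fell by 1.32 on the log2 scale and did not pass the test either. Cyp4d20 had the smallest adjusted p of the P450s, with a log2 fold change of 2.70 ± 0.68 (SE, adjusted p 0.626, edgeR), and its BRM-depleted libraries lay above both control libraries. The control libraries held 4 and 7 counts of Cyp4d20, under the count limit. It passed this limit only through other groups, among them the BRM-depleted cells in which it is high, so nothing is read from its place among the 7. For Cyp6a9 the BRM-depleted libraries held 21.0 and 21.0 CPM, also above both control libraries, with a log2 fold change of 1.19 ± 0.42 (SE, adjusted p 0.868, edgeR).

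Compared with BRM-depleted cells, which received the same dsRNA, recBRM-V5 cells had 17 P450s higher and 2 lower, 38.0% of the 50, beside 19.5% of all tested genes (11.4% higher and 8.1% lower). The recBRM-K804R-V5 cells had 13 higher and 2 lower, 30.0%, beside 11.7% (6.87% higher and 4.85% lower). Among the 42 P450s that passed the count limit without the recombinant lines, 11 were higher and 2 lower in recBRM-V5, 31.0% beside 18.03% of 7743 genes. In recBRM-K804R-V5 8 were higher and 2 lower, 23.8% beside 11.1%. Cyp28a5 had the largest change in recBRM-V5 here too, with a log2 fold change of 7.43 ± 0.40 (SE, adjusted p 0.000137, edgeR), which ranged from 6.74 to 8.88 over the fits without 1 library, lowest without BRM-depleted replicate 1 and highest without its replicate 2. The BRM-depleted libraries held 1 and 5 counts of this gene. Cyp12c1 had the largest in recBRM-K804R-V5, with 3.79 ± 0.28 (SE, adjusted p 0.000515, edgeR). Cyp6v1 fell in recBRM-V5, from 80.2 and 74.1 to 53.8 and 35.5 CPM, and Cyp4ac3 fell in recBRM-K804R-V5, from 10.9 and 13.3 to 4.59 and 4.24 CPM. Neither gene was called against control cells. The call of Cyp6v1 was lost without either BRM-depleted library or recBRM-V5 replicate 2, and that of Cyp4ac3 without any 1 of the 4 libraries. Without 1 library the count was between 11 and 23 for recBRM-V5, with 12 and 11 without BRM-depleted replicates 1 and 2. It was between 5 and 11 for recBRM-K804R-V5, with 6 and 5 without these replicates and 11 and 10 without recBRM-K804R-V5 replicates 1 and 2.

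Groups of 2 libraries can also be compared by whether they overlap, without a test. Both recBRM-V5 libraries lay above both control libraries for 32 of the 50 P450s and below them for 8, beside 27.3% and 26.1% of all tested genes. For recBRM-K804R-V5 against control the counts were 29 above and 9 below, beside 28.2% and 26.5%. For BRM-depleted against control cells they were 19 and 5, beside 22.0% and 22.1%. Against recBRM-K804R-V5, recBRM-V5 was above for 23 and below for 10, beside 21.0% and 20.6%. Against BRM-depleted cells, recBRM-V5 was above for 29 and below for 11, beside 31.4% and 29.0%, and recBRM-K804R-V5 was above for 24 and below for 10, beside 37.1% and 30.9%. These counts include the 8 P450s that passed the count limit only with the recombinant lines. Over the other 42, recBRM-V5 was above control for 25 and below for 8, beside 24.6% and 27.4% of 7743 genes, and recBRM-K804R-V5 was above for 24 and below for 8, beside 26.3% and 27.7%. BRM-depleted cells were above control for 18 and below for 4, beside 22.3% and 22.5%. Between the recombinant lines, recBRM-V5 was above for 16 and below for 10, beside 19.4% and 20.9%. Against BRM-depleted cells, recBRM-V5 was above for 22 and below for 11, beside 28.8% and 30.3%, and recBRM-K804R-V5 was above for 18 and below for 10, beside 35.7% and 32.3%.

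Cyp9f2 and Cyp6t1 are in the study's lists of BRM targets, Cyp9f2 as increased and Cyp6t1 as decreased. The study tested with limma, and neither gene was called here in recBRM-V5 against control. Cyp9f2 had 269 and 163 CPM in recBRM-V5 and 141 and 116 CPM in control libraries, a log2 fold change of 0.75 ± 0.24 (SE, adjusted p 0.0649, edgeR). Cyp6t1 had 49 and 50 counts in control and 20 and 32 in recBRM-V5 libraries, with a log2 fold change of -0.71 ± 0.37 (SE, adjusted p 0.234, edgeR). Other P450s with known roles were too low to test. Cyp6g1, known for resistance to DDT, had at most 8 counts in any library, and Cyp6a2, also known from DDT resistance, at most 10. Cyp303a1, needed for sensory bristles, did not exceed 2 counts, and Cyp301a1, which acts in the cuticle, did not exceed 5.

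Lists of genes that work with P450s were also counted. Of 6 electron donors, 2 rose in recBRM-V5 cells, beside 10.9% of all tested genes, and none was called in recBRM-K804R-V5, beside 10.5%. Cpr, the reductase of the microsomal P450s, had 281 and 312 CPM in control, 499.7 and 888 in recBRM-V5 and 369 and 397 in recBRM-K804R-V5 libraries, with a log2 fold change of 1.23 ± 0.26 (SE, adjusted p 0.0148, edgeR) in recBRM-V5. Cyt-b5-r, annotated as a relative of cytochrome b5, had 5 and 6 counts in control and 4 and 4 in BRM-depleted libraries. It had 44 and 31 in recBRM-V5 and 14 and 18 in recBRM-K804R-V5 libraries. Cyt-b5-r thus passed the count limit only with the recombinant lines, so nothing is read from the count of 2 electron donors. The mitochondrial donors dare, Fdx1 and Fdx2 were not called. Of 6 P450s of ecdysone synthesis that have names of their own, 2 were tested. The gene dib, a mitochondrial P450, had 28 and 20 counts in control, 19 and 40 in BRM-depleted and 0 in all 4 libraries of the recombinant lines (adjusted p 0.00968 for recBRM-V5 and 0.013 for recBRM-K804R-V5, edgeR). For shd, which makes 20-hydroxyecdysone, the log2 fold change in recBRM-V5 was -0.43 ± 0.59 (SE, adjusted p 0.677, edgeR).

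Of 11 regulators of P450 genes, 10 were tested, and 2 rose and 3 fell in recBRM-V5 cells, while 1 rose and 1 fell in recBRM-K804R-V5 cells. Of all tested genes, 18.2% and 10.5% were called in these comparisons. The stress factor gene cnc had 129 and 133 CPM in control, 229.9 and 265 in recBRM-V5 and 193 and 233 in recBRM-K804R-V5 libraries, and rose in both lines. Its inhibitor Keap1 rose in recBRM-V5 by 1.24 on the log2 scale. The ecdysone receptor gene EcR changed by -1.04 in recBRM-V5 on the log2 scale, its partner usp by -0.98, and the juvenile hormone receptor gene gce by -0.94 in recBRM-V5 and -0.69 in recBRM-K804R-V5. MtnA, a metallothionein that copper induces, was higher by 5.36 in recBRM-V5 and 4.94 in recBRM-K804R-V5 on the log2 scale. The part of these genes, of copper and of the shifts in hemocyte markers in the P450 changes was not tested.

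BRM occupancy was taken from the ChIP-seq table, whose values are coverage signal averaged over each gene and short flanks. For each replicate the IP signal was divided by the Input signal, and 76 of the 80 P450s passed an Input limit of 0.5 in both replicates. Of the 4 others, Cyp12d1-d and Cyp12d1-p were below it in both replicates and Cyp9b1 and Cyp9b2 in replicate 1. The median of the mean IP/Input was 0.998 over the P450s and 0.962 over all 13557 genes. A mean IP/Input of at least 1.1 was reached by 14 P450s (18.4%), beside 15.6% of all genes. These were 10 of 33 in the CYP3 clan, 2 of 32 in the CYP4 clan, 1 of 4 in the CYP2 clan and 1 of 7 in the mitochondrial clan. The replicates differed widely. In replicate 1, 15 P450s (19.7%) reached 1.1, beside 15.9% of all genes. In replicate 2, 28 (36.8%) did, beside 25.8%, and 2 did so in both (Cyp6a22 and Cyp12a5), beside 1.37% of all genes.

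The 5 highest mean ratios were those of Cyp18a1, Cyp308a1, Cyp6g2, Cyp6t1 and Cyp317a1. Cyp18a1 had 0.858 and 1.75 in replicates 1 and 2, Cyp308a1 0.896 and 1.69 and Cyp6g2 0.858 and 1.67. In these 3 genes the first replicate lay below 1 and the second replicate carried the high mean. Cyp6t1 had 1.05 and 1.48 and Cyp317a1 1.363 and 1.099. The lowest were Cyp28d2 with 0.856 and 0.669, Cyp4d21 with 0.785 and 0.789, Cyp313a5 with 0.913 and 0.727, Cyp12e1 with 0.953 and 0.699 and Cyp4ae1 with 0.812 and 0.859. None of the 76 P450s differed between IP and Input in limma on log2(signal + 0.1), beside 0.0% of all genes, and none of the P450s had an unadjusted p under 0.05.

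**Figure D5:**
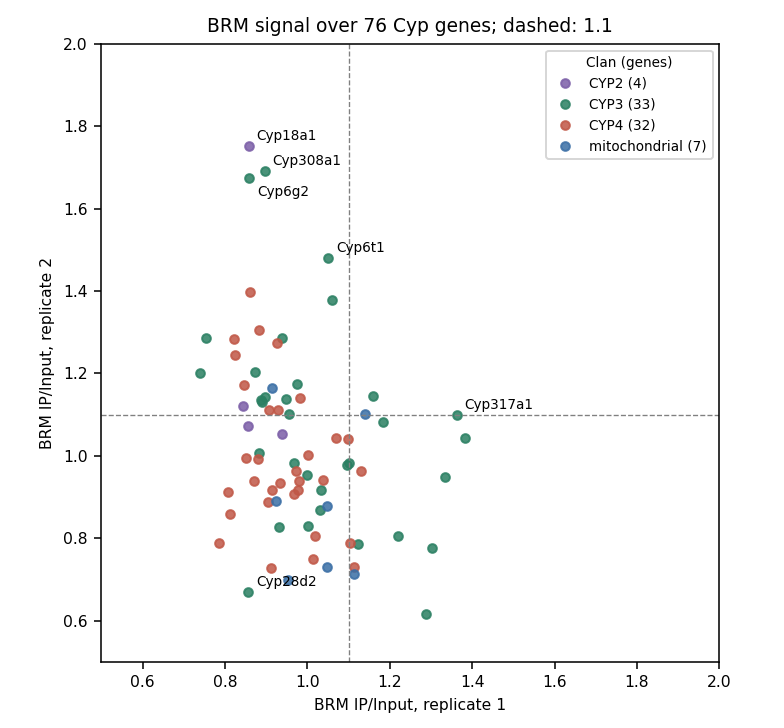
IP/Input of BRM in replicate 1 (x axis) and replicate 2 (y axis) for 76 P450s, colored by clan, with dashed lines at 1.1. Cyp18a1, Cyp308a1 and Cyp6g2 lie high in replicate 2 and below 1 in replicate 1, and 2 genes lie above 1.1 in both.

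IP/Input is given next to the RNA-seq calls as a description, without a test. Of the 19 that rose in recBRM-V5, 3 had a mean IP/Input of at least 1.1 (Cyp6a22, Cyp6a20 and Cyp6a9), beside 15.6% of all genes, with a median of 0.976. Of the 2 that fell, 1 did, with a median of 1.18. Of the 25 tested and not called P450s with a ratio, 6 reached 1.1, with a median of 1.04, and of the 30 not tested in the RNA-seq, 4 did, with a median of 0.996. The replicates differed in these sets. Of the 19 that rose, 8 reached 1.1 in replicate 1 and 3 in replicate 2. Of the 25 not called, 7 did in each replicate, and of the 30 not tested, 0 did in replicate 1 and 17 in replicate 2. Cyp28a5 had 0.975 and 1.17 in the 2 replicates, Cyp4g1 0.915 and 0.916 and Cyp12c1 1.05 and 0.729. In the group of Cyp6a genes in 2R, 7 of 8 genes reached 1.1 in replicate 1 and 1 did in replicate 2, beside the 15.9% and 25.8% of all genes, and the median ratio of the 8 genes was 1.17 in replicate 1 and 0.966 in replicate 2.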

How the data were processed

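RNA-seq and ChIP-seq of S2 cells were used as deposited. The RNA-seq table holds read counts per gene that the authors made with HTSeq from strand-specific libraries and deposited without normalization. The deposited ChIP-seq values are coverage signal, the mean that the authors took with ngs.plot over each gene body and short flanks, with a scaling not given in the sources used here. The submitters' processing notes name Bowtie, TopHat2 and the build dm3, without versions. P450 genes were matched by FBgn identifier, with positions and exon lengths from the Ensembl BDGP6 annotation and promoter sequence from RefSeq. No coordinates were converted between builds. The members and gene lists were chosen with earlier results of these data known.

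Counts were filtered with filterByExpr, scaled with TMM and tested with the quasi-likelihood test of edgeR 4.0.16 (R 4.3.3) in 1 fit of all 8 libraries, and p-values were adjusted over the 8165 tested genes by the Benjamini-Hochberg method at 0.05. ChIP-seq signal was tested with limma 3.58.1 on log2(signal + 0.1) for genes whose Input reached 0.5 in both replicates. Named were all P450s called in any of 6 comparisons, the P450s in the study's target lists, the 5 with the highest control level per length and the 5 with the highest and the lowest mean IP/Input. Library totals ranged from 6600562 to 10287294 counts, and the depth of the ChIP-seq libraries is unknown. Between replicates, counts varied beyond sampling noise (chi-square per degree of freedom 9.62 to 89.6). The replicates are labelled as biological replicates, and with 2 per group the precision is limited. On simulated counts for the comparison of recBRM-V5 with control cells (8012 genes, 200 changed), the edgeR steps recovered 39.5% of 2-fold and 87.4% of 4-fold changes, with 5.99% false calls. Alternatives were other scalings and filters, DESeq2 1.42.0, limma-voom, a replicate block, the 4 compared libraries alone, other thresholds and leaving out each library.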

Additional observations from a re-analysis of the deposited data

Results flagged for a closer look

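By the edgeR contrast of recBRM-V5 with recBRM-K804R-V5, the change against control cells differed for 6 of 50 P450s, beside 4.74% of all tested genes. The shared control drops out of this contrast. Of the 6, Cyp28a5 and Cyp4p3 passed the count limit only with the recombinant lines. Among the 42 P450s that passed it without these lines, 4 were called, beside 4.25% of 7743 genes. With only the 4 compared libraries in the fit, Cyp28a5 alone was called. The change in recBRM-V5 minus that in recBRM-K804R-V5 was 4.04 for Cyp28a5, 3.05 for Cyp4ac1, 2.14 for Cyp4p3, 1.63 for Cyp6a20, 1.25 for Cyp4e2 and 1.01 for Cyp6d4 on the log2 scale. In each gene both recBRM-V5 libraries were above both recBRM-K804R-V5 libraries. The level of brm was higher in recBRM-V5 by 3.33 on the same scale, and its part in these differences was not tested.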

How the results depend on the processing

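Of 1680 values of single P450s under the alternatives, 1468 kept their call or stayed uncalled, 182 lost the call and 30 gained it. Direction was compared only where the fit of the report or the alternative gave a call, and there 0 reversed. Without 1 library the count of called P450s lay between 15 and 23 for recBRM-V5 against control (21 in the report), 7 and 11 for recBRM-K804R-V5 against control (19), 2 and 10 between the recombinant lines (6), 11 and 23 for recBRM-V5 against BRM-depleted cells (19) and 5 and 11 for recBRM-K804R-V5 against BRM-depleted cells (15), and it was 0 for BRM depletion. At an adjusted p under 0.01 the counts were 9 for recBRM-K804R-V5 against control, 1 between the recombinant lines, 12 for recBRM-V5 and 9 for recBRM-K804R-V5 against BRM-depleted cells. Without the filter on low counts, 3 P450s were called for BRM depletion (Cyp4e2, Cyp6a9 and Cyp4d20) and 18 between the recombinant lines, where DESeq2 called 12. With only the 4 compared libraries the count was 1 between the recombinant lines and 23 for recBRM-K804R-V5 against BRM-depleted cells.

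With the replicate block the counts were 19 for recBRM-V5 and 16 for recBRM-K804R-V5 against control, 0 for BRM depletion, 6 between the recombinant lines, 19 and 14 against BRM-depleted cells, and 0 in the ChIP-seq. Same-numbered RNA-seq libraries of different groups were correlated in their deviations from the group means. The correlation was 0.626 for control with recBRM-V5 and 0.235 for BRM-depleted with recBRM-K804R-V5. For the other pairs of groups it lay between -0.320 and -0.267. The signs differed, so the numbers were not taken to pair these samples. Whether some groups were numbered in another order is not given in the sources used here. In the ChIP-seq the correlation of IP and Input was 0.691 over 2 numbers, and each IP was divided by the Input of its number. An alternative chosen after seeing the data crossed the numbers of the BRM-depleted and recBRM-K804R-V5 libraries in the block. The counts were then 23 for recBRM-V5 and 26 for recBRM-K804R-V5 against control, 0 for BRM depletion and 17 between the recombinant lines. Against BRM-depleted cells they were 27 for recBRM-V5 and 24 for recBRM-K804R-V5. At an unadjusted p under 0.05, also chosen after seeing the data, they were 7 for BRM depletion, 25 between the recombinant lines, and 30 and 24 against BRM-depleted cells. A mean IP/Input of at least 1.1 held for 14 P450s, at least 1.0 for 38 and at least 1.2 for 7. Both replicates reached 1.1 in 2. After each replicate's ratios were divided by their median, the mean reached 1.1 in 28. Without replicate 1 the count was 28 and without replicate 2 it was 15. Leaving out a ChIP-seq replicate gave no limma test. The cause of these differences was not tested.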
